A study of Mus musculus with 7 samples.

Results

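Amino acid transporters carry amino acids across the membranes of cells, and 8 of their genes are described here in germinal centre B cells of RRas2-deficient and wild-type (WT) mice. The genes are Slc7a5, Slc7a6, Slc7a11, Slc3a2, Slc1a5, Slc38a1, Slc38a2 and Slc7a1. They were chosen by name, as probes whose single gene symbol in the platform annotation is one of these symbols, and of several probes the brightest in the mean over 7 arrays was kept. All 8 were found among 21515 genes with a single-symbol probe. Of these, 7 were bright enough to be tested, among 16136 genes in all, and Slc7a11 was not. In RefSeq, Slc7a5 (gene ID 20539) and Slc7a6 (330836) lie on chromosome 8, Slc38a1 (105727) and Slc38a2 (67760) on chromosome 15, Slc7a11 (26570) on chromosome 3, Slc3a2 (17254) on chromosome 19, Slc1a5 (20514) on chromosome 7 and Slc7a1 (11987) on chromosome 5.

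The series compared messenger RNA of germinal centre B cells with and without R-Ras2, a GTPase related to RAS, and its title links the protein to steps of the B cell response that demand energy. All mice received sheep red blood cells, and 7 days later their spleen cells positive for B220, CD95 and GL7 were isolated by flow cytometry. Total RNA was hybridised to 1 array per sample, with 3 arrays from RRas2-deficient mice and 4 from WT mice. The labels call the samples biological replicates and do not say which part of Rras2 is missing, in which cells, or the strain, age or pooling of the animals. In 1 field they write Rras where the others write RRas2.

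Dividing lymphocytes import amino acids faster than resting ones, for protein synthesis and as a signal of supply to the growth kinase complex mTORC1. Slc7a5 (LAT1), Slc7a6 (y+LAT2) and Slc7a11 (xCT) encode light chains that exchange amino acids across the membrane. These light chains reach the cell surface bound by a disulphide bridge to a shared heavy chain, CD98, encoded by Slc3a2. Slc1a5 (ASCT2), Slc38a1 (SNAT1) and Slc38a2 (SNAT2) encode sodium-dependent carriers of glutamine and other small neutral amino acids, and Slc7a1 (CAT1) encodes a carrier of arginine and lysine that needs no heavy chain. The transcription factor ATF4 is known to switch on several of these genes when amino acids run short, through amino acid response elements that lie upstream of the start in some genes and downstream of it, as in the first intron, in others.

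Upstream sequences of 3 of the genes are shown, which leave out any element beyond these windows. Slc7a11 was chosen because it holds a known pair of response elements. Slc38a2 and Slc7a1 stand for a gene that hardly differed between the array sets described below and one that differed widely. Each run is the 250 bases before an annotated transcription start, 5′ to 3′ on the strand of the gene, from RefSeq (GRCm38.p6). The windows are chr3:50443614-50443863 on the minus strand for Slc7a11, chr15:96699729-96699978 on the minus strand for Slc38a2 and chr5:148399905-148400154 on the minus strand for Slc7a1. Capitals mark matches, on either strand, to the response element core TGATGNAA, to the E-box CACGTG bound by MYC, or to the antioxidant response element core TGACNNNGC bound by NRF2.
Slc7a11: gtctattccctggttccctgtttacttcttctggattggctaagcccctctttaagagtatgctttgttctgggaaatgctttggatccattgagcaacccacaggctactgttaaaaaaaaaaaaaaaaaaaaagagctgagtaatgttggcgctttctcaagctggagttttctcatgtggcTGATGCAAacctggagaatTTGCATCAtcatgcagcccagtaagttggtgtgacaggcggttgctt
Slc38a2: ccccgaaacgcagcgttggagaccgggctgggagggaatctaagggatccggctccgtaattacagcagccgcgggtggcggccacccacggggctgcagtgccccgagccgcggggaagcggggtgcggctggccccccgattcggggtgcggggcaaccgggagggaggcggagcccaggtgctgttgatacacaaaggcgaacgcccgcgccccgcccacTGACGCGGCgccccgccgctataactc
Slc7a1: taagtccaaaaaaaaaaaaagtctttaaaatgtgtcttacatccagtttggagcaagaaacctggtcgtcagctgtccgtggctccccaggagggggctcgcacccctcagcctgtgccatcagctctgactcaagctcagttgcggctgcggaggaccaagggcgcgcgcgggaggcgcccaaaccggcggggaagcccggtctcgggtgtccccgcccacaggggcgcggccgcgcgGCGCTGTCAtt

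The RefSeq table held 7 such windows for 5 of the 8 genes (Slc7a6, Slc7a11, Slc3a2, Slc38a2 and Slc7a1). The response element core occurred in 1 of the 7 windows, that of Slc7a11, where it lay at bases -66 to -59 on the gene strand and at -47 to -40 on the other strand, counted from the start site. It occurred in 3.45% of 32851 promoter windows of the same length. The antioxidant core occurred in 3 of the 7 windows, 1 each of Slc7a6, Slc38a2 and Slc7a1, and in 10.2% of all windows. The E-box occurred in 0 of the 7 and in 6.02% of all windows. The motifs did not overlap one another in these windows. A match describes letters and does not show a bound site, and no match says only that the letters are not in the window.

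Before the genotypes are compared, the arrays themselves need a description. The deposited values are log2 intensities, and the interquartile range of all values parted the arrays into 3 of narrower spread (2.37 to 2.49) and 4 of wider spread (2.69 to 2.91). RRas2-deficient replicate 2 and WT replicates 1 and 2 formed the narrower set, and RRas2-deficient replicates 1 and 3 and WT replicates 3 and 4 the wider one, so each set holds both genotypes. What separates the sets is not given in the labels. Of 15 listed markers of germinal centre B cells 13 were measured, and all of these, among them Bcl6, Fas and S1pr2, lay above the limit for dim genes of 3.48, the 25th percentile of the gene means. Their mean was 9.95, 9.04 and 9.91 on RRas2-deficient replicates 1 to 3 and 9.14, 9.20, 10.31 and 10.05 on WT replicates 1 to 4, higher on every wider array than on any narrower one. The 4 measured of 7 listed markers of naive or follicular B cells (Ccr7, Fcer2a, Klf2 and Gpr183) ran the other way, with means of 7.52, 8.80 and 7.47 on RRas2-deficient replicates 1 to 3 and 8.21, 8.50, 6.99 and 7.59 on WT replicates 1 to 4. In a bulk sample, fewer cells of a type and less RNA per cell cannot be told apart. The list of plasma cell markers was lower in the mean of RRas2-deficient cells for 7 of 7 genes, where 48.3% of all tested genes were lower. Of the 7, 0 passed the limma test and 0 had an unadjusted p under 0.05. The counts of lower genes were 8 of 13 for germinal centre, 2 of 4 for naive, 6 of 7 for T cell and 4 of 5 for NK cell markers. They were 3 of 12 for monocyte, macrophage or dendritic cell, 3 of 6 for neutrophil, 2 of 3 for erythroid, 1 of 4 for platelet and 3 of 6 for stromal markers. WT replicate 3 also stood apart in sex-linked genes, with Xist at 6.61 against 10.04 to 10.28 on the RRas2-deficient and 9.43 to 10.29 on the other WT arrays. The Y-linked Eif2s3y read 6.75 there, against 3.09 to 3.62 on the RRas2-deficient and 3.09 to 4.40 on the other WT arrays, and Kdm5d (6.48) and Uty (5.93) were likewise highest there. WT replicate 1 came next, with Eif2s3y at 4.40, Kdm5d at 4.97 and Uty at 4.31. Its Xist (9.43) was the lowest after that of WT replicate 3. WT replicate 3 also had the highest value of Slc7a5, Slc7a6, Slc3a2, Slc38a1 and Slc7a1, and the part of sex in these values was not tested. The targeted gene Rras2 read 6.93, 6.68 and 7.12 on the RRas2-deficient arrays and 7.13, 7.41, 8.66 and 8.39 on the WT arrays.

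Of the transporter genes, 0 of 7 tested passed an adjusted p of 0.05 for the genotype in limma (Benjamini-Hochberg over 16136 genes), where 0.0124% of all tested genes passed. All 7 had lower means in RRas2-deficient than in WT cells, and 48.3% of all tested genes were lower. The median log2 difference of the 7 genes, RRas2-deficient minus WT, was -0.19, and that of all tested genes was 0.00. The count of lower genes was 7 of 7 with the arrays centred on their medians and 6 of 7 after a further quantile normalization, where Slc7a1 differed by 0.05. It rested on single arrays, with 4 of 7 genes lower and a median of -0.02 without RRas2-deficient replicate 2, and 5 of 7 lower and a median of -0.09 without WT replicate 3. With the array set held as a block in the model, 7 of 7 were lower with a median of -0.19. In that model 6 or 7 were lower without any 1 array, with medians between -0.27 and -0.13, among them 6 of 7 and -0.27 without RRas2-deficient replicate 2. The genotypes overlapped in every one of the 7 genes, while 1.08% of all tested genes had no overlap.

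**Figure D1:**
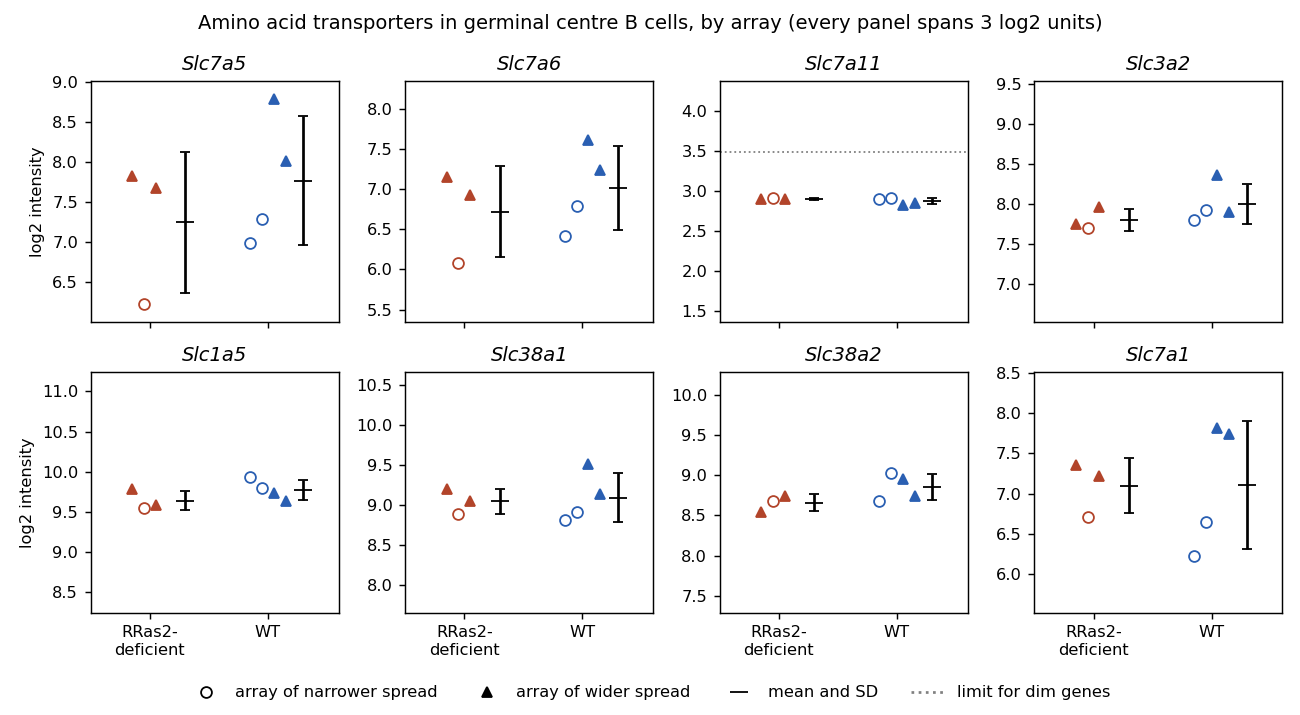
Log2 intensity of the 8 transporter genes (y axis, a span of 3 log2 units in every panel) on each array, RRas2-deficient left and WT right. Open circles are the 3 arrays of narrower spread and filled triangles the 4 of wider spread, bars give the mean and SD (n = 3 RRas2-deficient and n = 4 WT), and the dotted line in the Slc7a11 panel is the limit for dim genes at 3.48. Triangles lie above circles within each genotype for Slc7a5, Slc7a6, Slc38a1 and Slc7a1, and Slc7a11 lies under the limit on all arrays.

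Slc7a5, the light chain of the leucine exchanger, had the largest difference of the 7. It read 7.83, 6.23 and 7.68 on RRas2-deficient replicates 1 to 3, and 6.99, 7.29, 8.79 and 8.01 on WT replicates 1 to 4. The groups overlapped, and RRas2-deficient replicate 2 was the lowest array and WT replicate 3 the highest. The means were 7.25 ± 0.88 (SD, n = 3) in RRas2-deficient and 7.77 ± 0.80 (SD, n = 4) in WT cells, a log2 difference of -0.52 ± 0.55 (SE) or 1.44-fold. Its 95% interval ran from -1.83 to 0.79, with a limma adjusted p of 1.00. The difference was -0.02 without RRas2-deficient replicate 2. Within the array sets the overlap was gone, since 6.23 lay below 6.99 and 7.29 in the narrower set, and 7.83 and 7.68 lay below 8.79 and 8.01 in the wider set. The difference within the sets was -0.91 in the narrower and -0.64 in the wider one.

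Slc7a6, the light chain of the exchanger of arginine against neutral amino acids, varied in the same way at a lesser size. Its values were 7.15, 6.08 and 6.93 on RRas2-deficient replicates 1 to 3, against 6.41, 6.79, 7.61 and 7.24 on WT replicates 1 to 4. RRas2-deficient replicate 2 was again the lowest and WT replicate 3 again the highest array. The means of 6.72 ± 0.56 (SD, n = 3) in RRas2-deficient and 7.01 ± 0.52 (SD, n = 4) in WT cells differed by -0.29 ± 0.36 (SE) on the log2 scale, with an interval from -1.15 to 0.56 (limma adjusted p = 1.00). Without RRas2-deficient replicate 2 the sign turned, to 0.03. Within the sets the RRas2-deficient arrays again lay below every WT array, though closely in the wider set, where 7.15 lay under 7.24. The difference of set means was -0.52 in the narrower set, which holds 1 RRas2-deficient array, and -0.38 in the wider set.

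These 2 light chains were thus the transporter genes whose RRas2-deficient arrays lay below all WT arrays within both sets, 2 of 7, where 7.64% of all tested genes did so. With the array set held as a block in limma, Slc7a5 differed by -0.75 ± 0.19 (SE, 1.68-fold), with an interval from -1.21 to -0.29. Slc7a6 differed by -0.44 ± 0.14 (SE, 1.36-fold), with an interval from -0.77 to -0.11. Their unadjusted limma p-values were 0.00596 and 0.0156, and the adjusted p-values were 0.341 and 0.399, so that neither passed. An unadjusted p under 0.05 occurred for 2 of the 7 genes with the block, against 10.1% of all tested genes (6.24% in the lower direction of these 2), and for 0 of 7 without it, against 0.818%. The interquartile range was also used as a covariate in place of the block. Slc7a5 then differed by -0.41 ± 0.15 and Slc7a6 by -0.22 ± 0.10 (SE, limma adjusted p = 0.942 each). In the wider set the interquartile ranges were smaller on the RRas2-deficient (2.73 and 2.69) than on the WT arrays (2.91 and 2.78). In the narrower set they were 2.40 against 2.37 and 2.49. The germinal centre marker mean also was lower on the RRas2-deficient than on the WT arrays within both sets. It was 9.04 against 9.14 and 9.20 in the narrower set, and 9.95 and 9.91 against 10.31 and 10.05 in the wider one. Single markers did not all follow. In the narrower set Rgs13 read 5.86 on the RRas2-deficient array against 6.44 and 6.40 on the WT arrays. Fas read 7.33 there against 7.11 and 7.30, and Mki67 10.88 against 10.87 and 10.84. Over all 7 arrays 8 of the 13 markers had lower means in RRas2-deficient cells. The part of these markers in the transporter values was not tested.

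Slc3a2 encodes the CD98 heavy chain that both of these light chains need, and whether its difference departs from theirs was not tested. It read 7.75, 7.70 and 7.96 in RRas2-deficient cells, and 7.80, 7.93, 8.36 and 7.89 in WT cells. The groups overlapped, and only WT replicate 3 lay above 8. The means were 7.804 ± 0.14 (SD, n = 3) in RRas2-deficient and 7.997 ± 0.25 (SD, n = 4) in WT cells, for a log2 difference of -0.19 ± 0.15 (SE) and an interval from -0.56 to 0.18 (limma adjusted p = 1.00). With the block the difference was -0.23 ± 0.13 (SE, adjusted p = 0.610). It was -0.07 without WT replicate 3.

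Slc7a11, the light chain of the cystine and glutamate exchanger and the gene with the pair of response elements shown above, was dim on every array. Its brighter probe read 2.89, 2.91 and 2.89 on the RRas2-deficient arrays and 2.90, 2.91, 2.83 and 2.84 on the WT arrays, under the limit of 3.48. Its other probe read 2.84, 2.83 and 2.66 on the RRas2-deficient arrays and 2.88, 3.07, 2.55 and 2.78 on the WT arrays. No test was made, and neither probe gives a level that can be compared between genotypes.

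The glutamine carriers were read well above the limit for dim genes. Slc1a5 read 9.78, 9.55 and 9.59 on the RRas2-deficient arrays and 9.93, 9.79, 9.73 and 9.63 on the WT arrays. The groups overlapped, with a log2 difference of -0.13 ± 0.11 (SE) and an interval from -0.39 to 0.12. A second, dimmer probe of Slc1a5 had the opposite sign, at 6.83, 7.61 and 6.64 in RRas2-deficient cells and 6.44, 7.01, 6.70 and 6.09 in WT cells, a difference of 0.47 ± 0.30 (SE, limma adjusted p = 1.00). The mean over both probes differed by 0.17, so the direction for Slc1a5 depends on the probe. The gene lies on chromosome 7, which also carries Rras2.

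Slc38a2 had the least variation between array sets of the 3 glutamine carriers. It read 8.54, 8.69 and 8.75 on the RRas2-deficient arrays, and 8.68, 9.03, 8.96 and 8.75 on the WT arrays. Its difference was -0.19 ± 0.12 (SE) without the block and -0.19 ± 0.12 with it, and -0.17 and -0.21 within the narrower and wider sets. The interval ran from -0.47 to 0.08 (limma adjusted p = 1.00). Slc38a1 read 9.20, 8.89 and 9.05 on the RRas2-deficient arrays and 8.81, 8.92, 9.51 and 9.13 on the WT arrays. Its difference was -0.05 ± 0.18 (SE) with an interval from -0.48 to 0.39, and the sign turned to 0.09 without WT replicate 3.

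Slc7a1, the arginine and lysine carrier, differed strongly between arrays and hardly between genotype means. It read 7.36, 6.71 and 7.22 on RRas2-deficient replicates 1 to 3 and 6.22, 6.65, 7.81 and 7.75 on WT replicates 1 to 4. The RRas2-deficient arrays lay inside the WT range. The means were 7.10 ± 0.34 (SD, n = 3) in RRas2-deficient and 7.11 ± 0.80 (SD, n = 4) in WT cells, a log2 difference of -0.01 ± 0.43 (SE). The RRas2-deficient array of the narrower set lay 0.28 above the mean of its WT arrays, and those of the wider set differed from theirs by -0.49. With the block the difference was -0.18 ± 0.18 (SE, limma adjusted p = 0.776), so no single direction describes this gene.

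**Figure D2:**
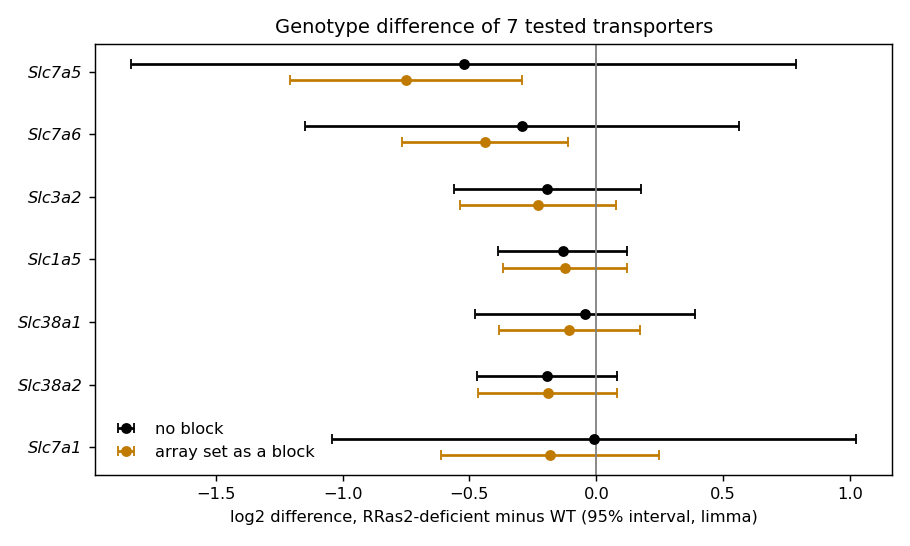
Log2 difference of the 7 tested transporter genes, RRas2-deficient minus WT (x axis), with the 95% interval of limma without a block (black) and with the array set as a block (orange). All intervals without the block span 0, and with the block those of Slc7a5 (-1.21 to -0.29) and Slc7a6 (-0.77 to -0.11) do not, while no adjusted p passed.

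The step between array sets was larger than the genotype difference for 4 of these genes. Slc7a5 was higher on the wider arrays than on the narrower by 1.52 in RRas2-deficient and by 1.26 in WT cells (log2). Slc7a1 stepped by 0.58 in RRas2-deficient and by 1.35 in WT cells, Slc7a6 by 0.96 and 0.82, and Slc38a1 by 0.23 and 0.46, each in the same order of genotypes. For Slc3a2 the step was 0.15 in RRas2-deficient and 0.26 in WT cells. Slc38a2 differed between the sets by -0.04 in RRas2-deficient and 0.00 in WT cells, and Slc1a5 by 0.13 and -0.18. Over all 7 arrays, 3.81% of all tested genes had a larger step in size than Slc7a5, 7.05% a larger one than Slc7a1 and 11.8% a larger one than Slc7a6. The steps of Slc38a2 and Slc1a5 were exceeded by 89.0% and 82.8% of genes. The step of the light chain Slc7a5 was thus larger than that of its heavy chain Slc3a2 in both genotypes, as measured by 1 probe each.

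**Figure D3:**
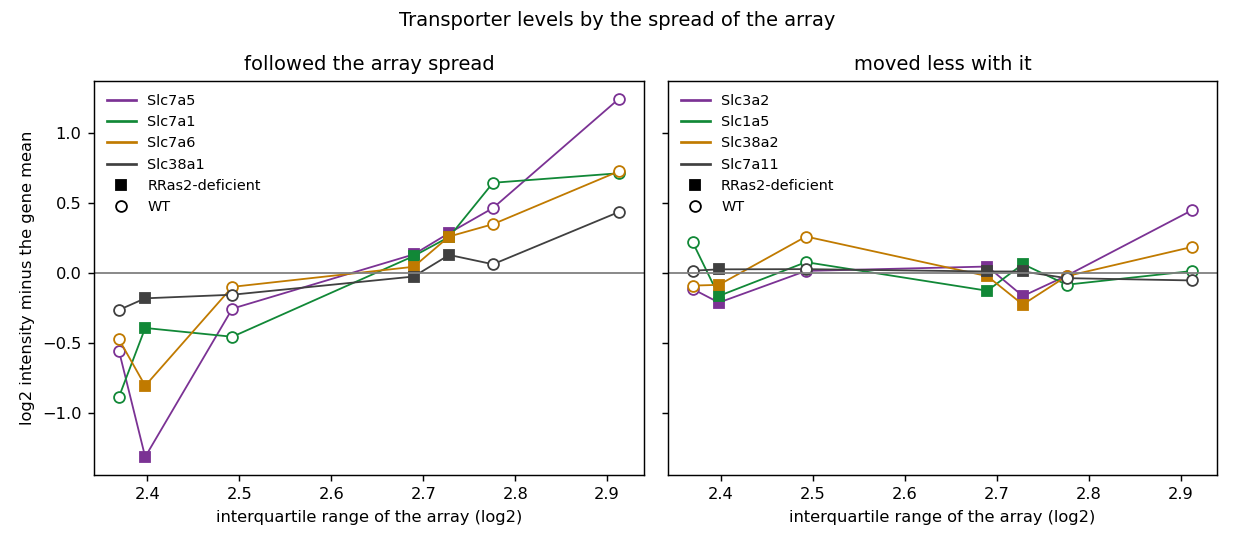
Log2 intensity minus the mean of the gene (y axis) against the interquartile range of the array (x axis, log2) for the 8 transporter genes, with filled squares for RRas2-deficient and open circles for WT arrays. Slc7a5, Slc7a1, Slc7a6 and Slc38a1 (left) lie lower on the 3 narrower arrays than on the 4 wider ones, and Slc3a2, Slc1a5, Slc38a2 and Slc7a11 (right) have smaller ranges.

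The genes with the profile closest to that of Slc7a5 over the 7 arrays, by root mean square difference of gene-centred log2 values, were Arhgap19 (0.0940), Sdhc (0.111) and Hspd1 (0.127), where the median over all tested genes was 0.770. Those closest to Slc3a2 were Ipo4 (0.0375), Spidr (0.0628) and Mcoln2 (0.0666), with a median over all genes of 0.286. The measure includes the size of a profile, with an SD over the arrays of 0.752 for Slc7a5 and 0.204 for Slc3a2. No gene could therefore be this close to both, and the lack of a shared gene carries no result.

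Other amino acid transporters of the cell surface had differences of both signs. Of 42 listed, 40 were measured and 29 tested. Of these, 16 were lower and 13 higher in RRas2-deficient cells, with a median log2 difference of 0.00. Limma called 0, and 0 had an unadjusted p under 0.05, against 0.818% of all tested genes. With the block 2 of 29 had such a p, against 10.1% of all tested genes. Slc7a7 (y+LAT1), another light chain of CD98, differed by -0.68 ± 0.43 (SE). It read 4.93, 4.38 and 4.71 on the RRas2-deficient arrays and 4.86, 4.61, 6.43 and 5.51 on the WT arrays, where WT replicates 3 and 4 stood above the rest. With the block it differed by -0.83 ± 0.26 (SE, limma adjusted p = 0.394), and its RRas2-deficient arrays lay below the WT arrays within both sets. That held for 1 of the 29 genes, against 7.64% of all tested genes. In the other direction, 3 of the 29 lay above the WT arrays within both sets, against 1081 of 16136 tested genes. The other genes of lowest p lay near the limit for dim genes, with Slc6a14 (0.21), Slc38a5 (-0.17) and Slc6a19 (0.08) at mean log2 intensities between 3.45 and 3.97 in RRas2-deficient and between 3.62 and 3.76 in WT cells.

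Genes of the lysosomal membrane and of amino acid sensing by mTORC1 numbered 36 tested, 19 lower and 17 higher, with a median of -0.04, 0 called and 0 at an unadjusted p under 0.05. Those of lowest p were Lamtor3, a subunit of the Ragulator scaffold (-0.18 ± 0.10, log2 difference ± SE), Nprl3, a subunit of the GATOR1 inhibitor (0.32 ± 0.18), the peptide and histidine carrier Slc15a3 (-0.20 ± 0.13) and the proton-coupled carrier Slc36a1 (0.17 ± 0.12). With the block 24 of the 36 were lower, against 50.9% of all tested genes, with a median of -0.06. In that fit 0 of 36 were called and 4 had an unadjusted p under 0.05, against 10.1% of all tested genes, and 6 lay below every WT array within both sets, against 7.64%. Among these 6, named after their values were seen, were Sar1b, a small GTPase of vesicle coats (-0.62 ± 0.11), and Seh1l, a subunit of the GATOR2 complex (-0.58 ± 0.14, blocked log2 difference ± SE). Genes that use imported amino acids were 13 lower and 12 higher of 25 tested, with a median of 0.00, 0 called and 0 at an unadjusted p under 0.05 (1 of 25 with the block). Among them the branched-chain aminotransferase gene Bcat1 differed by -0.28 ± 0.25 (SE), the glutamine synthetase gene Glul by 0.31 ± 0.37, the glutathione synthetase gene Gss by 0.08 ± 0.09 and the glutathione-degrading enzyme gene Chac1 by 0.09 ± 0.11.

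Regulators of transporter genes were 14 lower and 17 higher of 31 tested, with a median of 0.02, 0 called and 1, Bach1, at an unadjusted p under 0.05, where 0.818% of all tested genes had such a p. With the block 0 were called and 6 of 31 had an unadjusted p under 0.05, against 10.1% of all tested genes. Bach1, a repressor of antioxidant genes that competes at the antioxidant element with NRF2, read 6.04, 5.99 and 5.83 in RRas2-deficient cells and 5.70, 5.66, 5.68 and 5.60 in WT cells. The genotypes did not overlap, as in 1.08% of all tested genes, and its difference was 0.29 ± 0.08 (SE) with a limma adjusted p of 1.00. Mxi1, an antagonist of MYC, differed by 0.25 ± 0.12, the stress kinase gene Eif2ak3 (PERK) by 0.28 ± 0.22 and the transcription factor gene Mitf by 0.14 ± 0.12. Atf4 and Myc, named after their values were seen, differed by -0.13 ± 0.13 and 0.00 ± 0.39 (log2 difference ± SE). Myc was lower on the wider arrays, at 7.43 and 7.79 in RRas2-deficient and 7.56 and 7.75 in WT cells, than on the narrower ones, at 8.85 in RRas2-deficient and 8.25 and 8.54 in WT cells. That is the reverse of the step of Slc7a5.

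**Figure D4:**
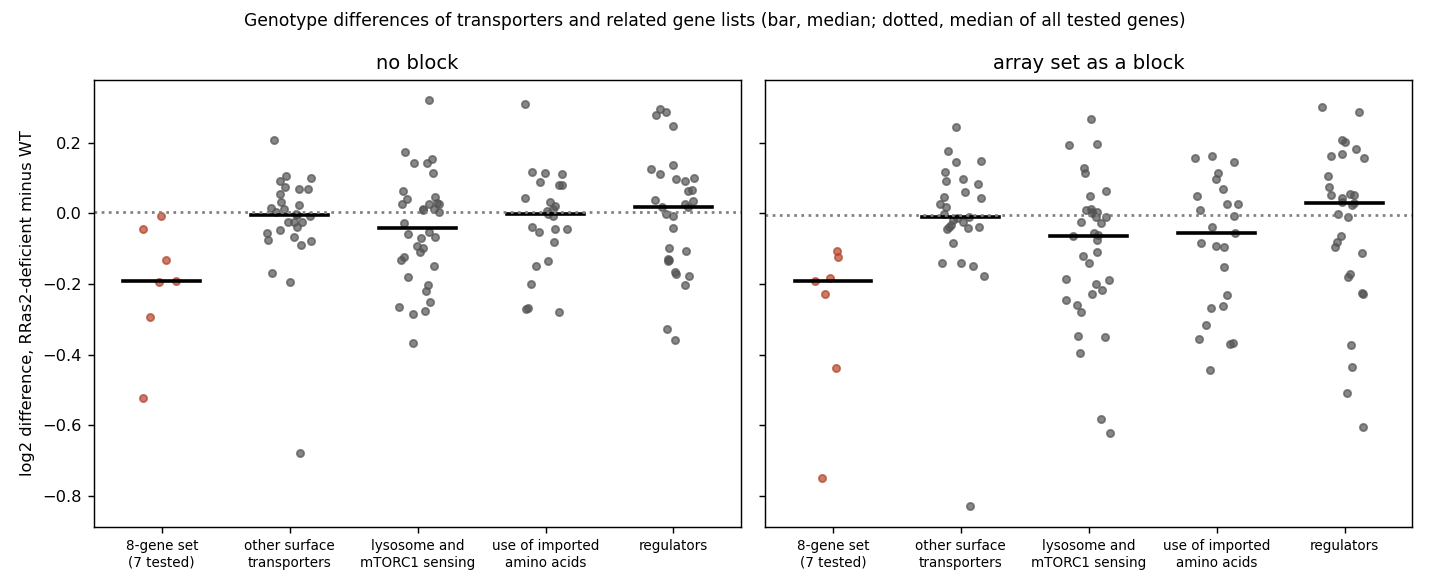
Log2 difference, RRas2-deficient minus WT (y axis), of each tested gene of the 8-gene transporter set and 4 related lists, without a block (left) and with the array set as a block (right). Points are genes, bars are medians and the dotted line is the median of all tested genes. The transporter set has medians of -0.19 in both fits, and the other lists have medians between -0.06 and 0.03.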

How the data were processed

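The table deposited by the authors holds log2 intensities, 1 row for each transcript cluster, made with RMA in the package oligo per the submitters' processing notes, with no version given. Gene names came from the platform annotation (22225 of 25349 probes with 1 symbol), and all 8 gene IDs were found in RefSeq. Genes dimmer in the mean than the 25th percentile (3.48) were not tested. limma 3.58.1 in R 4.3.3 tested RRas2-deficient minus WT, two-sided, with Benjamini-Hochberg adjustment over 16136 genes, and was tested on simulated data. The simulated noise was independent between genes and held no array sets. It thus does not show how the test behaves on arrays that fall into such sets. The array sets were separated where sorted interquartile ranges had their widest gap (0.197). The number of arrays limits precision, and p-values reflect the spread of these samples alone. The labels call the samples biological replicates but name no animals, so the technical part of this spread is not known. No 2 arrays held identical values. The members, the 4 related lists, the marker lists and the tests were chosen with earlier results of these data known. The genes named besides the members include the 4 of lowest unadjusted p in each related list, and the 3 closest profiles of Slc7a5 and Slc3a2. Named too are markers, Rras2 and the sex-linked Xist, Eif2s3y, Kdm5d and Uty. Sar1b, Seh1l, Atf4 and Myc were named after their values were seen. Markers of T cells, myeloid cells, neutrophils, erythroid cells, NK cells, platelets and stroma gave 0 limma calls (0 at an unadjusted p under 0.05), and their list means ranged from 3.31 (neutrophil) to 6.19 (stroma) over the arrays. Single genes carried some of these means. In the stromal list Cr2 (8.96) and Pecam1 (8.23) were high, and Cdh5, Col1a1, Col3a1 and Vcam1 read 4.31 to 5.30. In the erythroid list Tfrc read 6.35, Slc4a1 4.86 and Klf1 3.89. A list mean thus does not measure the share of such cells. WT replicate 1 had the highest T cell mean, 4.63 against 3.90 to 4.17 on the other arrays. It also had the highest NK cell mean, 4.02 against 3.53 to 3.85. The part of such cells in the transporter values was not tested. Alternatives changed the filter, probes, normalization, prior, weights, block, covariate and arrays used.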

Additional observations from a re-analysis of the deposited data

How the results depend on the processing

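Over 26 alternatives 0 transporter genes passed an adjusted p of 0.05 in limma, with 0 to 3 of them at an unadjusted p under 0.05. The 3 occurred with the set block without WT replicate 1 and without WT replicate 4. In these fits 1728 and 2100 of 16136 tested genes had such a p. Without WT replicate 4 and without the block, 93 of 16136 genes and 0 transporter genes had one. Slc7a5, Slc3a2 and Slc38a2 were lower in RRas2-deficient cells in all 26, with ranges of -0.97 to -0.02, -0.34 to -0.07 and -0.25 to -0.14. The sign turned for Slc1a5 with the mean over its probes (0.17), with array weights (0.0235) and on the wider arrays alone (0.00313). It turned for Slc7a1 after a further quantile normalization (0.0523), with the interquartile range as a covariate (0.0823), on the narrower arrays alone (0.28) and with the replicate block (0.20), and for Slc38a1 on the narrower arrays alone (0.0286). Leaving out 1 array at a time without the set block gave -0.305 to 0.227 for Slc7a1, -0.140 to 0.0931 for Slc38a1, -0.506 to 0.0269 for Slc7a6, -0.202 to -0.0783 for Slc1a5 and a median of -0.26 to -0.02. With the set block Slc7a1 and Slc7a6 kept their sign, at -0.489 to -0.0715 and -0.546 to -0.358, and Slc38a1 ran from -0.197 to 0.00901, Slc1a5 from -0.202 to 0.00313 and the median from -0.27 to -0.13. The cause of these turns was not tested.

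Genes called by limma over all genes numbered 2. They were 1 with the arrays centred on their medians (172 at an unadjusted p under 0.05), 5 with array weights, 0 with the replicate block (176 at that p), and 0 on the narrower (1351) or wider (1311) arrays alone. Without 1 array they were 0 to 2, and 1 to 2 with the set block. The replicate block pairs by number and sets WT replicate 4 aside. Same-numbered samples had correlations of their deviations from the group means of -0.59, 0.78 and 0.66, so the numbers were not taken as pairs, and the median with that block was -0.22. Slc7a11 was too dim for a level to be read. The intervals of Slc7a5 and Slc7a1 were too wide for a small difference to be seen with 7 arrays.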
